A study of Homo sapiens with 10 samples.

Results

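The 50 genes described here encode the proteins that carry a human cell through mitosis. They cover the kinases, cyclins and phosphatases that start it, the spindle checkpoint, the kinetochore and centromere, the chromosomal passenger complex, spindle motors, cytokinesis, anaphase, and the structure of mitotic chromosomes. They were taken by name from a list of symbols, not by a threshold on their values, but with earlier results of these data known. All 50 were found among the 20379 genes of the deposited table. All 50 were also among the 12352 genes tested, whose mean over the 10 libraries reached 1 FPKM. FPKM counts sequenced fragments relative to the length of the transcript and the size of the library. The lowest mean of the 50 genes was 3.03 FPKM.

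Poly(A) RNA was sequenced from DBTRG-05MG and U87, established human glioblastoma cell lines, after 0, 6, 12, 24 and 48 h in dibutyryl cAMP at 1 mM. Dibutyryl cAMP is an analogue of the second messenger cAMP that enters cells and activates protein kinase A. Each line and time had 1 library, 10 in all, with no replicates and no untreated library after 0 h, so that treatment and time in culture cannot be told apart. The sample labels and the series description disagree on the unit of dose and on the length of exposure, and the labels were followed.

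Most of these genes are transcribed in G2 and mitosis and are low in cells that are not dividing. Their promoters are held off in G0 and G1 by the DREAM complex, which contacts the cell cycle homology region (CHR), and are activated later in the cycle by B-MYB and FOXM1, with NF-Y bound at CCAAT boxes. Their transcripts serve in tumours, glioblastoma included, as a measure of how many cells are dividing.

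Total FPKM per library ran from 405316 to 487281, and relative depth from 100 to 116.8% of the DBTRG-05MG 0 h library. The astrocyte genes GFAP and S100B were below 1 FPKM in every library of both lines. The neural stem cell factor SOX2 was at 23.0 to 36.6 FPKM in DBTRG-05MG and listed at 0 in all U87 libraries, while VIM, an intermediate filament gene, was at 865.5 to 7246 FPKM. Of 13 markers of immune, endothelial, epithelial, neuronal and oligodendrocyte cells, 10 were below 1 FPKM in every library of both lines. SNAP25, SYT1 and MBP were at 1 FPKM or more in all of them.

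The promoters of 7 of the genes are shown because the genes of this class share short elements there. Each run holds the 130 bases before a start site of the RefSeq annotation on GRCh38.p14, 5′ to 3′ on the strand of the gene. Capitals mark the CHR (TTTGAA), its variant TTCGAA, the CCAAT box (read as ATTGG where it lies on the other strand), the cAMP response element TGACGTCA and its shorter form TGACG. PLK1, CCNB2 and CDC20 have a CHR and at least 1 CCAAT box, and CCNB1 has CCAAT boxes with no CHR in this window. CENPE has the full cAMP response element. CDC25C is shown from the fourth of 4 listed starts, where a CHR lies, while the counts below use the first. CDC25B is shown from the third of 4, where TTCGAA lies, and was added after its values were seen as the gene that was not lower at 48 h.
PLK1: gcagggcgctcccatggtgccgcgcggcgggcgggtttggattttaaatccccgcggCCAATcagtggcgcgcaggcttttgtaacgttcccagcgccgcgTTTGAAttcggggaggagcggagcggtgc
CCNB2: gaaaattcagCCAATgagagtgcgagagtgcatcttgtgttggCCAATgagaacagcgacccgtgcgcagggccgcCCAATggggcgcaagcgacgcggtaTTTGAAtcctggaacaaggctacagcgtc
CDC20: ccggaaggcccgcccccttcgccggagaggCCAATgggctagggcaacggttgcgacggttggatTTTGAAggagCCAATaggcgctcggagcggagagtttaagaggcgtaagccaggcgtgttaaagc
CCNB1: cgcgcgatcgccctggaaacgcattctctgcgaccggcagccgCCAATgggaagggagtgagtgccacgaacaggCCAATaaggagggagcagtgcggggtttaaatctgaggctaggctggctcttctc
CENPE: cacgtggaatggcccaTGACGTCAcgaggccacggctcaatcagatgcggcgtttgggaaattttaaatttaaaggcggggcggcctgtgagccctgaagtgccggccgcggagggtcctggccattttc
CDC25C: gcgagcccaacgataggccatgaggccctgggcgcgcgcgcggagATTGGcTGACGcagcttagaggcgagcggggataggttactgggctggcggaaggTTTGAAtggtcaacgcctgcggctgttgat
CDC25B: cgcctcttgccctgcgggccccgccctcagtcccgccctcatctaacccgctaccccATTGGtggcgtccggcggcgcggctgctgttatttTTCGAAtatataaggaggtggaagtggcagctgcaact

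These runs lie at chr16:23678759-23678888 on the plus strand (PLK1), chr15:59105016-59105145 plus (CCNB2), chr1:43358851-43358980 plus (CDC20) and chr5:69167020-69167149 plus (CCNB1). CENPE is at chr4:103198344-103198473 on the minus strand, CDC25C at chr5:138331805-138331934 minus, and CDC25B at chr20:3796180-3796309 plus. The CHR begins 29 bases before the start of PLK1 and of CCNB2, 30 before that of CDC25C and 65 before that of CDC20. The 3 CCAAT boxes of CCNB2 begin 120, 87 and 54 bases before the start. Other transcript models of these genes in GENCODE 29 begin at other sites, in places within or before the bases shown.

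Of the 50 genes, 43 had a promoter of 300 bases in the RefSeq table (250 before to 50 after the first listed start), searched on both strands. A CHR lay in 29 of these 43 (67.4%), beside 15.4% of 27305 genes, and in the last 50 bases before the start in 18, beside 2.57%. A CCAAT box lay in 30 (69.8%), beside 35.7% of all genes. The full cAMP response element lay in CCNA2, CENPE, KIF15, NDC80 and PRC1 (11.6%, beside 1.98%), and TGACG, which the full element contains, in 17 (39.5%, beside 25.01%). TTCGAA lay in BUB1 and NDC80. From their first listed starts, the ones counted here, CDC25C and CDC25B had none of these elements. A match describes letters only. The 29 genes with a CHR stood at a median of 27.2% of their 0 h level in DBTRG-05MG at 48 h and 40.2% in U87. The 14 without, CDC25C and CDC25B among them, stood at 23.2% and 49.6%.

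In DBTRG-05MG the median level of the mitosis genes stayed near or above its start through 24 h and was far below it at 48 h. Their median level was 99.1% of 0 h at 6 h, 122% at 12 h, 92.7% at 24 h and 26.5% at 48 h. At least 2-fold lower than at 0 h were 0 of 50 genes at 6 h (2.63% of the 11775 genes with a 0 h level of at least 1 FPKM), 0 at 12 h (3.4%), 1 at 24 h (2.96%) and 48 at 48 h (7.46%). Single genes ran from 65.0 to 199% of 0 h at 12 h and from 49.3 to 180% at 24 h. From 12 to 24 h 43 of 50 were lower (43.55% of genes at 1 FPKM or more at 12 h). The median step was -0.52 on the log2 scale, beside 0.04 for those genes. From 24 to 48 h all 50 were lower (55.3% of genes at 1 FPKM or more at 24 h), 47 of them by at least 2-fold (3.602%). In bulk RNA, fewer dividing cells and less of these transcripts per cell cannot be told apart.

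In U87 the genes were low earlier and followed an uneven course. Their median level was 75.1% of 0 h at 6 h, 49.0% at 12 h, 66.4% at 24 h and 43.5% at 48 h. At least 2-fold lower were 2 genes at 6 h, BUB1 and SPC24 (5.63% of 11042 genes), 29 at 12 h (5.11%), 11 at 24 h (9.76%) and 32 at 48 h (8.94%). From 6 to 12 h all 50 were lower (58.1% of genes at 1 FPKM or more at 6 h). From 12 to 24 h 46 of 50 were higher (38.4% of genes at 1 FPKM or more at 12 h). The median of these 11042 genes itself differed from 0 h by -0.20 at 24 h and -0.19 at 48 h on the log2 scale. With each library centred on its median, the 2-fold count was 5 at 24 h and 20 at 48 h, with no share over all genes at hand.

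**Figure D1:**
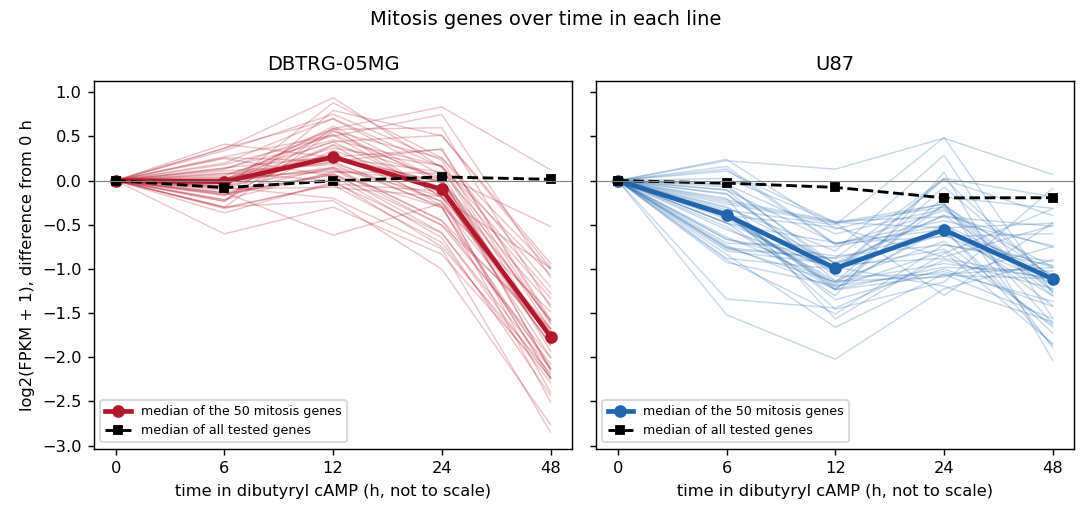
Difference from 0 h in log2(FPKM + 1) at 6, 12, 24 and 48 h in DBTRG-05MG (left) and U87 (right). Thin lines are the 50 mitosis genes, 1 library per line and time, and the thick line is their median. The dashed line is the median of the tested genes with a 0 h level of at least 1 FPKM (11775 in DBTRG-05MG, 11042 in U87). The DBTRG-05MG median is 0.27 at 12 h and -1.77 at 48 h, and the U87 median is -0.99 at 12 h, -0.56 at 24 h and -1.11 at 48 h.

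No gene of the 50 passed the threshold over all genes at any single time. Values were fitted as log2(FPKM + 1) with limma, with cell line as a block, and a p-value weighs the average of the 2 lines by how far they disagree over the 5 times. At 48 h, 0 of 50 passed the adjusted threshold of 0.05 (0% of all genes were called lower), and 38 were lower at an unadjusted p under 0.05 (8.53% of all genes). The smallest limma adjusted p was 0.104, that of CDCA8 and ESPL1, and the median change was -1.45 beside -0.07 for all genes. At 6, 12 and 24 h 0 of 50 passed by limma, and at an unadjusted p under 0.05 there were 0, 0 and 1 lower genes (3.33, 2.6 and 1.94% of all). The 1 gene at 24 h was KIF11, and CDC25B was higher there at the same level (1.56% of all genes).

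A common trend over the rank of time gave 0 of 50 adjusted calls in limma and 39 lower genes at an unadjusted p under 0.05 (10.3% of all genes), with a smallest adjusted p of 0.125 for KIF11. The call depended on how time was entered. With time in hours, which gives the last interval most weight, 15 of 50 passed (1.58% of all genes), among them CDCA8 at a limma adjusted p of 0.0184 and MKI67 at 0.0347. Without the U87 24 h library, 4 passed on the rank of time (0.324% of all): MKI67, SPC25, BUB1B and ESPL1, with limma adjusted p from 0.0435 to 0.0495. Within the lines, limma's trend was lower at an unadjusted p under 0.05 for 31 genes in DBTRG-05MG (8.06% of all) and 11 in U87 (10.1%), with 0 adjusted calls in either (0.47% and 0% of all).

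The time of the lasting drop was taken as the first time from which a gene stayed at least 2-fold below 0 h at all later times. In DBTRG-05MG this was 24 h for ANLN alone, 48 h for 47 genes, and not reached for CDC25B and BUB3. The largest drop between neighbouring times ended at 48 h in 49 of the 50 (24.9% of genes with a 0 h level of at least 1 FPKM). The exception was BUB3, whose largest drop ended at 24 h. With a 1.5-fold rule the lasting drop in DBTRG-05MG came at 24 h for 8 genes (3.87% of genes) and at 48 h for 40 (8.83%). The 8 were ANLN, AURKB, BUB1, BUB1B, CCNA2, ESPL1, KIF11 and MKI67. In U87 the time was 12 h for 6 genes (NEK2, TTK, CENPA, CENPF, KIF14 and KIF20B), 48 h for 26, and not reached for 18. Among all genes with a 0 h level of at least 1 FPKM, 5.23% first met this rule at 48 h in DBTRG-05MG, and 0.462% at 12 h and 6.87% at 48 h in U87.

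The U87 times turned on the 24 h library. A first, possibly passing, 2-fold drop came at 6 h for 2 genes, at 12 h for 27, at 24 h for BUB3, at 48 h for 13 and at no time for 7. With the 24 h library left out, which loosens the rule for every gene, 18 genes met the lasting rule at 12 h in place of 6. For this count and for the first drops the share over all genes was not computed. A 1.5-fold rule gave 9 genes at 6 h (2.37% of genes), 12 at 12 h (1.39%), 19 at 48 h (15.7%) and 10 at no time. The 9 were CCNB2, NEK2, BUB1, SPC24, CENPF, AURKB, KIF20B, ECT2 and SMC4. Centring on the median gave 2 genes at 12 h under the 2-fold rule, with no share over all genes at hand. The lowest U87 level lay at 12 h for 17 genes (11.2% of genes with a 0 h level of at least 1 FPKM). It lay at 24 h for BUB3, MAD2L1 and KIF18A (31.7%), and at 48 h for 29 (32.3%).

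**Figure D2:**
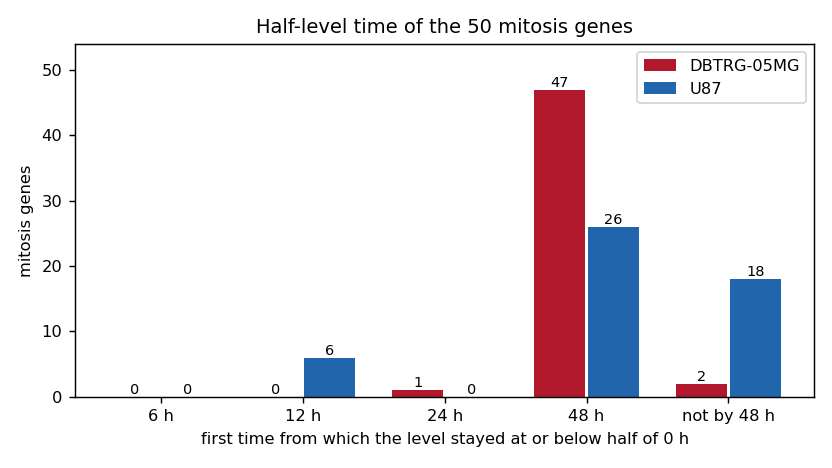
Number of the 50 mitosis genes (vertical axis) by the first time from which the level stayed at or below 50% of 0 h (horizontal axis), in DBTRG-05MG (red) and U87 (blue). In DBTRG-05MG 47 genes are in the 48 h class, and in U87 the classes of 12 h, 48 h and not by 48 h hold 6, 26 and 18.

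Levels below are in FPKM in the order 0, 6, 12, 24 and 48 h, DBTRG-05MG first and U87 second. Among the 9 kinases, cyclins and phosphatases of entry, 8 were at least 2-fold below 0 h in DBTRG-05MG and 3 in U87. The median stood at 22.9% of 0 h in the first line and 52.4% in the second.

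CDK1, the kinase whose activity defines M phase, stood at 12.6, 16.5, 25.1, 14.1 and 2.90 FPKM, and in U87 at 27.6, 21.3, 9.44, 11.9 and 25.9 FPKM. The 12 h library was thus the highest of DBTRG-05MG, at 199% of 0 h, and the lowest of U87, at 34.2%. At 48 h CDK1 was at 22.9% of its start in DBTRG-05MG and 93.8% in U87. Its mean log2 change was -0.95 ± 0.75 (SE, n = 2 lines, limma adjusted p = 0.642), from -1.81 in DBTRG-05MG and -0.09 in U87. The fitted value was 0.46 without the DBTRG-05MG 48 h library, -2.36 without that of U87 and -0.61 without U87 at 0 h. Such a fitted value also draws on the other times of both lines, and is not the change of the line that remains.

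CCNB1, the cyclin that activates CDK1 in mitosis, stood at 93.1, 93.2, 112, 91.7 and 20.5 FPKM, and in U87 at 116, 104, 54.04, 54.96 and 58.1 FPKM. It lay just short of the 2-fold line in U87 at 48 h, at 50.2% of 0 h, having been at 46.7% at 12 h. CCNA2, the cyclin of S phase and early mitosis, stood at 36.8, 43.9, 38.1, 23.1 and 6.00 FPKM, and in U87 at 28.6, 31.3, 16.8, 22.3 and 14.0 FPKM. In DBTRG-05MG the 2 cyclins were at 120.3 and 104% of their start at 12 h and at 22.03 and 16.3% of it at 48 h. The mean log2 change of CCNA2 at 48 h was -1.70 ± 0.43 (SE, limma adjusted p = 0.184), and -0.90 without the DBTRG-05MG 48 h library.

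PLK1, a kinase of centrosome maturation and spindle assembly, stood at 94.9, 88.9, 89.9, 83.6 and 17.2 FPKM, and in U87 at 118, 93.6, 83.1, 166 and 48.2 FPKM. It was at 88.1% of its start in DBTRG-05MG at 24 h and at 140.5% in U87, then at 18.1 and 40.8% at 48 h. CDC25B, a phosphatase that switches CDK1 on at the centrosome, stood at 44.6, 45.0, 67.5, 80.2 and 48.6 FPKM, and in U87 at 26.3, 30.9, 28.9, 37.1 and 27.6 FPKM. It was the 1 gene of the 50 above its start at 48 h in either line, at 109% and 105%. At 24 h its mean log2 change was 0.66 ± 0.23 (SE, limma unadjusted p = 0.0190, adjusted p = 0.9996).

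CCNB2, a second mitotic cyclin, CDC25C, a phosphatase that activates CDK1, and the centrosome kinases NEK2 and AURKA stood at 21.1 to 44.1% of 0 h in DBTRG-05MG at 48 h and at 43.7 to 59.4% in U87. NEK2, which acts in centrosome separation, was the one of these 4 that was at least 2-fold lower in U87 at 12, 24 and 48 h. In DBTRG-05MG at 12 h it was at 183% of its start.

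The spindle checkpoint holds anaphase back until every kinetochore is attached. Of its 5 genes here, 4 were at least 2-fold lower in DBTRG-05MG at 48 h and 3 in U87. BUB1, a checkpoint kinase that marks the centromere, stood at 27.2, 24.3, 28.9, 17.8 and 4.98 FPKM, and in U87 at 49.7, 19.0, 17.6, 26.2 and 20.7 FPKM. In U87 it was already at 38.2% of its start at 6 h. BUB1B, which encodes BubR1 of the mitotic checkpoint complex, stood at 23.7, 19.0, 22.9, 14.2 and 4.06 FPKM, and in U87 at 32.2, 16.5, 13.6, 21.7 and 8.11 FPKM. Its mean log2 change at 48 h was -2.08 ± 0.36 (SE, limma adjusted p = 0.131), with 17.1 and 25.2% of the start in the 2 lines.

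BUB3, the WD-repeat partner of both proteins, did not follow them. It stood at 42.8, 55.5, 70.0, 44.8 and 29.5 FPKM, and in U87 at 60.2, 61.2, 42.9, 23.9 and 43.0 FPKM. It was at 69.0 and 71.4% of its start at 48 h, and its lowest U87 level was that of the 24 h library, where most of the 50 genes were above their neighbours. MAD2L1, the checkpoint protein that binds CDC20, was at 46.8% of its start in DBTRG-05MG and 69.1% in U87. TTK, the kinase that recruits the checkpoint, was at 17.0 and 41.8%.

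The kinetochore links the centromere to spindle microtubules. All 7 of its genes here were at least 2-fold lower in DBTRG-05MG at 48 h and 5 of 7 in U87, where 6 of 7 had been so at 12 h. NDC80, the microtubule-binding subunit, stood at 14.4, 14.9, 21.1, 14.4 and 4.13 FPKM, and in U87 at 21.0, 16.2, 8.53, 11.6 and 5.12 FPKM. CENPF, a large protein of the outer kinetochore, stood at 24.7, 21.1, 26.5, 26.2 and 5.75 FPKM, and in U87 at 26.4, 14.4, 7.68, 12.2 and 8.27 FPKM. At 12 h the U87 levels were 40.6 and 29.04% of the start, whereas the DBTRG-05MG levels were above it.

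NUF2, the partner of NDC80, stood at 4.87, 5.74, 8.55, 5.53 and 1.81 FPKM, and in U87 at 7.10, 5.00, 2.68, 2.80 and 3.83 FPKM. At 48 h it was at 37.0 and 53.9% of the start. SPC25, another subunit of the NDC80 complex, stood at 18.3, 16.4, 19.2, 12.6 and 5.02 FPKM, and in U87 at 22.8, 18.2, 12.7, 28.1 and 7.10 FPKM. The U87 24 h level of SPC25 was 123% of its start and the highest of that line. CENPA and CENPE, the centromeric histone and a kinesin of chromosome alignment, had DBTRG-05MG maxima at 24 h and stood at 31.6 and 20.6% at 48 h, with 33.6 and 23.4% in U87. SPC24 was at 23.0% of its start in U87 at 12 h, the lowest share of the 50 genes at that time, and at 52.7% at 48 h.

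The chromosomal passenger complex corrects wrong attachments and later marks the midzone. Its 4 genes were all at least 2-fold lower in DBTRG-05MG at 48 h, and CDCA8 and INCENP were in U87. CDCA8, which encodes borealin, stood at 21.3, 21.1, 23.5, 15.3 and 4.29 FPKM, and in U87 at 30.5, 36.2, 20.6, 25.4 and 7.49 FPKM. Its change was nearly equal in the lines at 48 h, -2.08 and -1.89 on the log2 scale, and its mean of -1.98 ± 0.27 (SE) had a limma adjusted p of 0.104.

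AURKB, the kinase of the complex, stood at 58.7, 62.3, 58.7, 34.5 and 12.1 FPKM, and in U87 at 82.8, 44.0, 28.4, 49.7 and 42.0 FPKM. INCENP, its scaffold, stood at 26.5, 26.3, 29.5, 19.1 and 7.23 FPKM, and in U87 at 28.7, 18.0, 12.3, 27.2 and 12.7 FPKM. BIRC5, which encodes survivin, stood at 50.1, 45.5, 55.7, 44.2 and 14.7 FPKM, and in U87 at 59.7, 51.1, 43.1, 44.7 and 41.4 FPKM. The 3 genes thus ended at 20.7 to 29.4% of the start in DBTRG-05MG and at 44.2 to 69.3% in U87, and INCENP had been back at 94.9% in U87 at 24 h.

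The spindle motors and microtubule factors were at least 2-fold lower in 7 of 7 genes in DBTRG-05MG at 48 h and in 5 of 7 in U87. KIF11, the kinesin that pushes the spindle poles apart, stood at 33.0, 21.4, 26.6, 18.1 and 6.26 FPKM, and in U87 at 17.7, 16.8, 8.69, 9.16 and 7.63 FPKM. It was below its start at every later time in both lines. The average of the lines was -0.86 ± 0.37 on the log2 scale at 24 h (SE, limma unadjusted p = 0.0456, adjusted p = 0.9996) and -1.67 ± 0.37 at 48 h (adjusted p = 0.152), where it was -1.10 without the DBTRG-05MG 48 h library.

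TPX2, which activates AURKA and nucleates microtubules, stood at 78.7, 70.2, 82.4, 63.4 and 17.3 FPKM, and in U87 at 90.3, 61.1, 44.8, 74.2 and 42.2 FPKM. KIF18A, a kinesin that dampens chromosome movement, stood at 7.26, 8.37, 10.7, 12.9 and 2.87 FPKM, and in U87 at 14.5, 15.7, 10.1, 9.66 and 10.1 FPKM. KIF18A was at 177% of its start in DBTRG-05MG at 24 h, then at 39.5% at 48 h, whereas in U87 it lay between 66.8 and 70.1% from 12 h on. KIF2C, a microtubule depolymerase, was at 24.4% in DBTRG-05MG at 48 h and 79.9% in U87. KIF15, a kinesin that shares the work of KIF11, KIF4A, a chromosome-bound kinesin, and the microtubule-associated CKAP2 were at 21.2 to 29.6% in DBTRG-05MG and 29.2 to 38.8% in U87.

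The 8 genes of the central spindle and cytokinesis were all at least 2-fold lower in DBTRG-05MG at 48 h, and 7 of 8 in U87, the exception being PRC1, which bundles the midzone microtubules, at 58.4%. ANLN, which organises the contractile ring, stood at 81.6, 66.1, 69.6, 40.2 and 11.2 FPKM, and in U87 at 56.6, 32.2, 28.9, 42.8 and 24.5 FPKM. It was the 1 gene of the 50 at least 2-fold lower in DBTRG-05MG at 24 h, at 49.3% of the start, and was at 13.7% at 48 h. KIF20A, the midzone kinesin, stood at 22.4, 19.8, 29.9, 18.2 and 3.13 FPKM, and in U87 at 41.7, 35.1, 29.7, 34.5 and 17.1 FPKM. It ended at 14.0 and 40.9% of the start, with a mean log2 change of -1.87 ± 0.41 (SE, limma adjusted p = 0.152), and -1.13 without the DBTRG-05MG 48 h library.

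KIF14, a kinesin of the midbody, stood at 4.20, 4.25, 6.05, 6.42 and 1.71 FPKM, and in U87 at 4.56, 3.18, 1.44, 1.72 and 1.15 FPKM. At 48 h it was lower relative to its start in U87 than in DBTRG-05MG, where it was at 40.8%, and its U87 level was at 31.5, 37.7 and 25.3% of the start at 12, 24 and 48 h. KIF23 and RACGAP1, the 2 subunits of centralspindlin, ECT2, the exchange factor they recruit to activate RhoA, and the kinesin KIF20B were at 27.2 to 37.2% in DBTRG-05MG at 48 h and at 27.6 to 48.2% in U87.

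Anaphase begins when CDC20 and UBE2C drive the destruction of securin, encoded by PTTG1, and so free separase, encoded by ESPL1. All 4 genes were at least 2-fold lower in DBTRG-05MG at 48 h, and CDC20 and ESPL1 were in U87. CDC20 stood at 94.2, 99.4, 108.5, 79.9 and 19.1 FPKM, and in U87 at 200.8, 109, 99.9, 136 and 80.6 FPKM. ESPL1 stood at 16.7, 12.8, 16.5, 10.7 and 3.05 FPKM, and in U87 at 9.14, 6.25, 5.22, 5.89 and 2.06 FPKM. It had the lowest share of its start of the 50 genes in U87 at 48 h, 22.6%, and its mean log2 change of -1.93 ± 0.28 (SE) had a limma adjusted p of 0.104.

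PTTG1 had the highest level of the 50 genes, at 269.5, 246, 175, 225 and 74.7 FPKM, and in U87 at 294, 211, 144, 297 and 223 FPKM. In DBTRG-05MG its 12 h level was 65.0% of 0 h, the lowest share of the 50 genes at that time. UBE2C, the ubiquitin-conjugating enzyme, was at 20.6% of its start in DBTRG-05MG at 48 h and at 88.0% in U87, where it had been at 49.4% at 12 h. The near copies PTTG2 and KIF4B reached at most 0.53 and 0.025 FPKM, and how reads of near copies were assigned is not given in the sources used here, so the levels of PTTG1 and KIF4A are uncertain to that extent.

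Among the 6 genes of mitotic chromosome structure, 6 were at least 2-fold lower in DBTRG-05MG at 48 h and 5 in U87. MKI67, which coats mitotic chromosomes and is the usual stain for dividing cells, stood at 79.9, 76.0, 69.4, 46.3 and 10.3 FPKM, and in U87 at 53.7, 38.2, 21.1, 57.4 and 12.3 FPKM. Its mean log2 change at 48 h was the largest of the 50, at -2.44 ± 0.44 (SE, limma adjusted p = 0.135). TOP2A, the topoisomerase that untangles sister chromatids, stood at 57.6, 73.1, 97.6, 67.6 and 18.0 FPKM, and in U87 at 62.3, 53.99, 20.3, 34.8 and 49.7 FPKM. Like CDK1, it was highest in DBTRG-05MG and lowest in U87 at 12 h (170% and 32.7% of the start). Its mean 48 h change was -0.97, from -1.63 in DBTRG-05MG and -0.32 in U87. The fitted value was 0.17 without the DBTRG-05MG 48 h library, -2.12 without that of U87 and -0.65 without U87 at 0 h.

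The condensins compact these chromosomes. NCAPG stood at 16.7, 16.8, 21.9, 18.9 and 6.31 FPKM, and in U87 at 11.6, 8.57, 4.59, 9.39 and 3.10 FPKM. NCAPH stood at 12.9, 12.3, 14.2, 8.80 and 2.47 FPKM, and in U87 at 14.2, 8.01, 7.29, 14.5 and 5.95 FPKM. The 2 subunits were at 81.1 and 102% of the start in U87 at 24 h and at 26.8 and 41.8% at 48 h. SMC2 and SMC4, the ATPase subunits, were at 22.3 and 27.3% in DBTRG-05MG at 48 h and at 44.6 and 45.8% in U87.

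**Figure D3:**
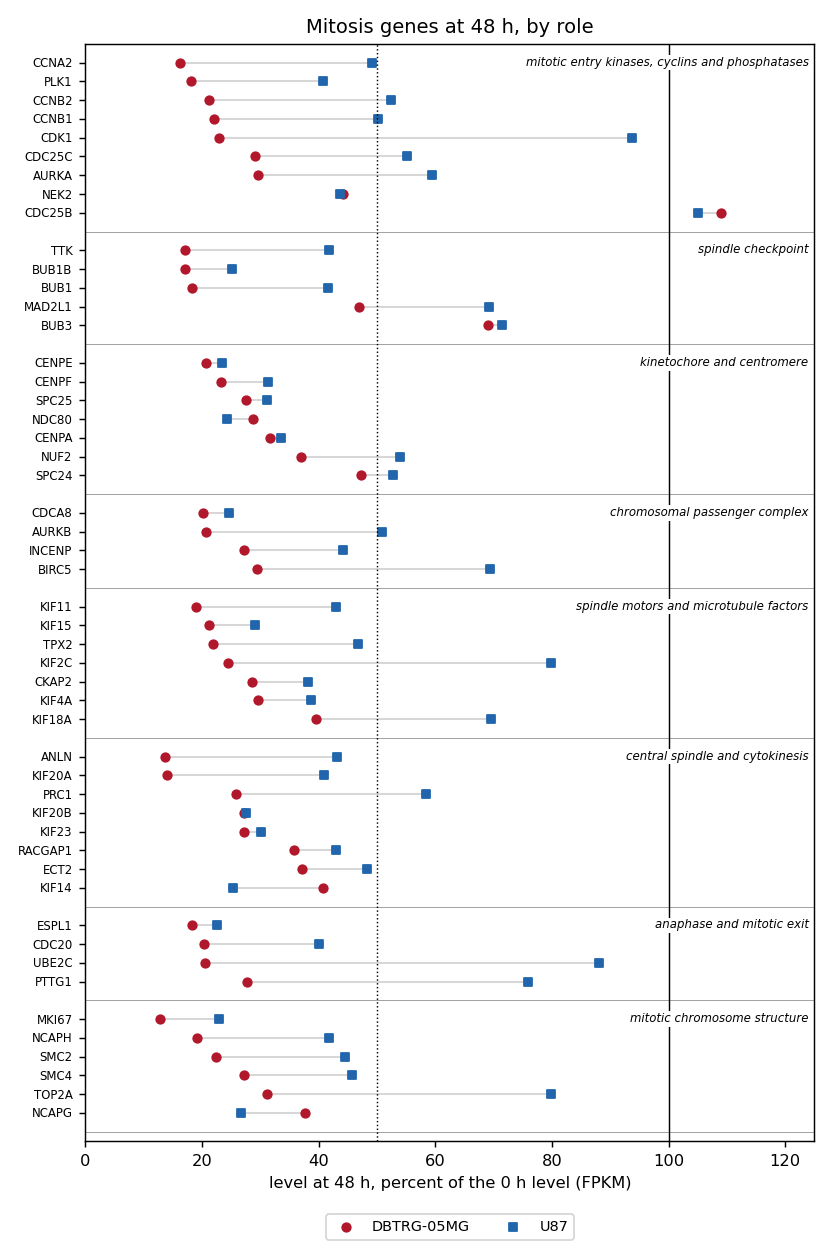
Level at 48 h as percent of the 0 h FPKM (horizontal axis) for each of the 50 genes by role, in DBTRG-05MG (circles) and U87 (squares), 1 library each. The dotted line is 50% and the solid line 100%. CDC25B lies right of 100% in both lines, and CDK1, UBE2C, KIF2C, TOP2A and PTTG1 show the U87 squares between 75.9 and 93.8%.

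Over both lines at 48 h, 32 of 50 genes were at least 2-fold lower in both (2.91% of 10565 genes with a 0 h level of at least 1 FPKM in both), 16 in DBTRG-05MG alone (4.1%) and 0 in U87 alone (5.78%). In direction, 49 were lower in both (39%). The 16 genes were CDK1, CCNB1, CCNB2, CDC25C, AURKA, MAD2L1, NUF2, SPC24, AURKB, BIRC5, KIF18A, KIF2C, PRC1, UBE2C, PTTG1 and TOP2A. The U87 levels of CCNB1 and AURKB, 50.2 and 50.8% of the start, lay just outside the 2-fold line, and that of CCNA2, 49.1%, just inside it.

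Relative to 0 h, most of the genes lay on opposite sides of their start in the lines at 12 h. In DBTRG-05MG 42 genes were above 0 h and 8 below, beside 50.4% of all genes below, and 12 were at least 1.5-fold higher (10.4% of all genes). At the same time the 16 housekeeping genes of that line had a median of 0.34 above 0 h on the log2 scale, beside 0.27 for the mitosis genes, and their part in the result was not tested. In U87 at 12 h 49 genes were below 0 h, with CDC25B the exception, beside 57.6% of all genes. Higher in DBTRG-05MG and lower in U87 were 41 genes (28.4%), and 12 h was the highest time of DBTRG-05MG for 32 genes (17.8% of all). Against the mean of 6 and 24 h, the DBTRG-05MG 12 h level had a median departure of 0.38 on the log2 scale, positive in 49 genes (52.3% of all). Over 12046 genes this departure had a correlation of -0.30 with transcript GC content, and over the 50 mitosis genes 0.03. After correction of each library for GC content and transcript length, an alternative chosen after seeing the data, the median was 0.33, with 45 genes positive.

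In absolute level, U87 was the higher line for 41 of 50 genes at 0 h, 23 at 6 h, 0 at 12 h, 23 at 24 h and 46 at 48 h, beside 45.4, 48.6, 41.2, 35.4 and 37.2% of all genes. A test of the line difference at 12 h against the other 4 times gave 0 adjusted calls in limma and 20 genes lower at an unadjusted p under 0.05 (0.818% of all genes). The same test at 48 h gave 0 adjusted calls and 22 genes higher in U87 at an unadjusted p under 0.05 (2.26%). These 2 tests share libraries, since each time serves in the baseline of the other. For the difference between the linear trends of the lines, limma gave 0 adjusted calls (0.0162% of all genes lower and 0% higher) and 0 genes at an unadjusted p under 0.05 in either direction (10.3 and 3.1% of all), with a smallest adjusted p of 0.372 for ANLN.

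The 24 h library of U87 was singled out with earlier results of these data known. It lay above its neighbouring times for most of the genes, and the 12 h library lay below its own. Above both the 12 h and the 48 h level at 24 h were 40 of 50 genes (26.4% of all genes), and below both at 12 h were 46 (19.5%). Measured as the 24 h value less the mean of 12 and 48 h, the median departure of the 50 genes was 0.48 on the log2 scale, beside -0.05 for all genes. It was 0.60 for 29 genes of G1/S and DNA replication and 0.33 for 112 other genes of the mitotic machinery. The genes furthest above were MKI67 at 1.76, SPC25 at 1.46, PLK1 at 1.38, NCAPG at 1.12 and INCENP at 1.06. MKI67 went from 21.1 FPKM at 12 h to 57.4 at 24 h and 12.3 at 48 h. BUB3 was furthest below at -0.82, with 42.9, 23.9 and 43.0 FPKM. CDK1 lay at -0.38 and MAD2L1 at -0.35. The U87 12 h library, set against the mean of its own neighbouring times, had a median departure of -0.48, beside 0.03 for all genes. The 12 and 24 h libraries are neighbours, so each enters the departure of the other. Which of them stood off the course of the line was not tested.

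The highest U87 level of the whole course lay at 24 h for 7 genes (16.4% of genes with a 0 h level of at least 1 FPKM): CDC25B, PLK1, SPC25, UBE2C, PTTG1, MKI67 and NCAPH. The line difference at 24 h, tested against the other times, gave 0 adjusted calls in limma, with 0 genes lower (6.39% of all) and SPC25 alone higher at an unadjusted p under 0.05 (2.85%). In DBTRG-05MG the median 24 h departure was 0.59, where the levels at 12 and 24 h were both far above that at 48 h, and 7 genes were above both neighbours (28.4% of all).

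Other features of the U87 24 h library stood apart. It listed 5106 genes at 0, beside 4446 to 4699 in the other U87 libraries. Its relative depth was the lowest of that line, at 107.1% beside 110.1 to 116.8%, and a count of zeros depends on depth. The SD of the departure over all genes was 0.469, beside 0.238 to 0.365 for the other libraries with neighbours on both sides. The housekeeping genes had a median departure of -0.26, and POLR2A, the large subunit of RNA polymerase II, was at 74.1 FPKM beside 40.8 at 12 h and 16.2 at 48 h. The part of these features in the departure of the mitosis genes was not tested. Departure and transcript GC content had a correlation of 0.22 over 12046 genes and 0.34 over the 50 mitosis genes, values that share 1 library. Over all genes the same correlation was larger in absolute size, with the opposite sign, for DBTRG-05MG at 12 h (-0.30) and U87 at 6 h (-0.26). Over the 50 genes it was 0.03 and -0.19 there. The part of GC content in the U87 24 h departure was not tested. Among the 25 mitosis genes of lower GC content 20 lay above the mean of their neighbours (29.4% of all genes in that range), and among the 25 of higher content 24 (48.8%). After the same correction for GC content and transcript length, the median departure was 0.57 and 47 genes were above, in place of 44 (43.1% of all genes as deposited). The 2-fold count in U87 at 24 h was then 2 in place of 11. By a 1.5-fold rule on the values as deposited it was 25 (26.7% of genes).

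**Figure D4:**
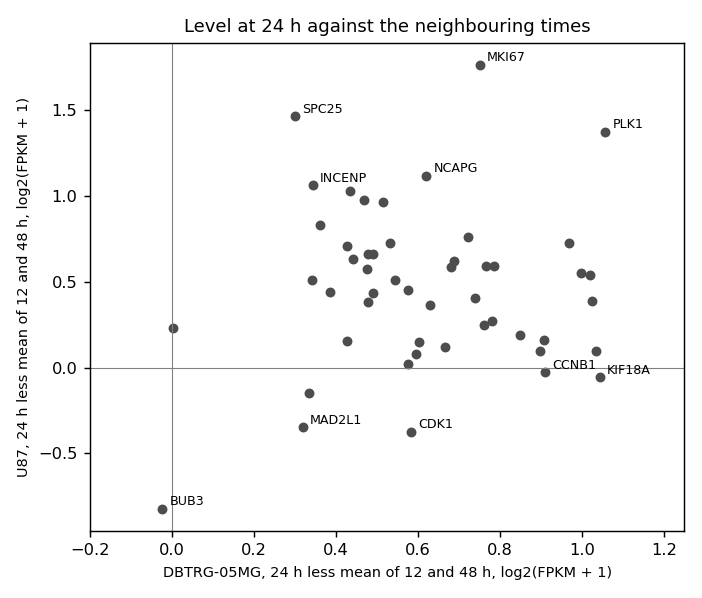
Departure of the 24 h level from the mean of 12 and 48 h, in log2(FPKM + 1), in DBTRG-05MG (horizontal axis) and U87 (vertical axis) for the 50 mitosis genes, with the largest and smallest named. MKI67 (1.76), SPC25 (1.46) and PLK1 (1.38) lie highest in U87, and BUB3 (-0.82) lies lowest.

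Genes of G1/S and DNA replication, which act before mitosis, gave a yardstick for timing. In DBTRG-05MG the median of 29 such genes was 0.17 at 12 h, -0.88 at 24 h and -1.65 at 48 h on the log2 scale, and that of the mitosis genes 0.27, -0.10 and -1.77. At 24 h 13 of the 29 replication genes were at least 2-fold below 0 h, beside 1 of 50 mitosis genes and 2.96% of 11775 genes. In U87 the order was the other way round at 12 h. The replication genes had medians of -0.26, -0.15 and -1.14 at 12, 24 and 48 h and the mitosis genes -0.99, -0.56 and -1.11. At least 2-fold lower at 12 h were 0 of 29 and 29 of 50, beside 5.11% of 11042 genes. At 6 h in U87 the replication genes stood lower, at -0.58 beside -0.39. The difference between the lists was not tested.

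**Figure D5:**
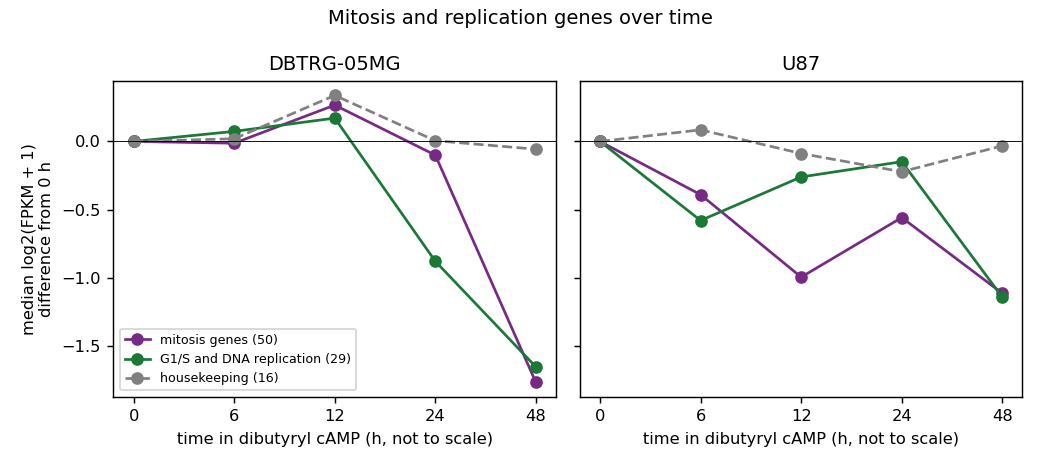
Median difference from 0 h in log2(FPKM + 1) by time in DBTRG-05MG (left) and U87 (right) for the 50 mitosis genes, 29 genes of G1/S and DNA replication, and 16 housekeeping genes. At 24 h in DBTRG-05MG the replication median is -0.88 and the mitosis median -0.10, and at 12 h in U87 they are -0.26 and -0.99.

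The other genes of the same machinery were read from 8 lists with 112 tested genes. By limma 0 of 112 passed the adjusted threshold at 48 h in either direction, and 66 were lower at an unadjusted p under 0.05 (8.53% of all genes). At least 2-fold lower at 48 h were 62 in DBTRG-05MG (7.46% of all genes) and 42 in U87 (8.94%). The anaphase-promoting complex and its partners had 1 of 15 genes at least 2-fold lower in each line and medians of -0.18 and -0.23 on the log2 scale. The 1 in both lines was FBXO5, the inhibitor of the complex, at 18.7 and 4.07 FPKM at 0 and 48 h in DBTRG-05MG and 13.9 and 5.18 FPKM in U87. ANAPC1, its largest subunit, was at 12.9 and 8.90 FPKM and at 16.6 and 9.22 FPKM.

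Cohesin and its protectors gave 5 of 13 in DBTRG-05MG and 4 in U87, led by CDCA5, which encodes sororin, and SGOL2, the guardian of centromeric cohesion. CDCA5 was at 33.8 and 5.82 FPKM at 0 and 48 h in DBTRG-05MG and 18.5 and 8.56 in U87. The constitutive centromere network gave 12 of 14 and 5, with CENPM and CENPH at mean log2 values of -1.49 and -1.37. The outer kinetochore and RZZ complexes gave 10 of 16 and 6, with ZWINT at -1.85 and CASC5, the scaffold KNL1, at -1.65. Other spindle factors gave 13 of 22 and 11, with KIF18B at -1.99 and the microcephaly gene ASPM at -1.80.

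The other condensin subunits gave 3 of 4 in DBTRG-05MG and 0 in U87, where NCAPG2 went from 45.1 FPKM at 0 h to 27.0 at 48 h. Other mitotic kinases and regulators gave 13 of 17 and 11, with GTSE1 at -1.93 and the kinase PBK at -1.91. Other genes of cytokinesis and abscission gave 5 of 11 and 4, with CEP55, a midbody protein, at -1.50 and DEPDC1 at -1.38. In each of the 8 lists the count in DBTRG-05MG was equal to or above that in U87.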

How the data were processed

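Poly(A) RNA sequencing of 10 libraries, 1 per line and time, was analysed. The deposited table gives 1 value per gene and library, which was read as FPKM; the unit is inferred from the values and not stated in the sources used here. Per the submitters' processing notes, HISAT, Bowtie2 and RSEM were used by the authors with the human build hg38, without versions; how fragments were counted is not given in the sources used here. A deposited FPKM of 0.002 stands for 0. Spreadsheet software had turned 25 symbols into dates, SEPT9 of the cytokinesis list among those not matched.

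The 12352 genes whose mean reached 1 FPKM were tested with limma 3.58.1 (R 4.3.3, empirical Bayes, mean-variance trend) on log2(FPKM + 1), with Benjamini-Hochberg adjustment over all of them and a threshold of 0.05. Fold changes on this scale understate those of low genes. Percentages of 0 h are ratios of FPKM. Outside limma, shares and medians over all genes for changes from 0 h cover tested genes with a 0 h level of at least 1 FPKM. The same holds for the time of the drop and of the highest and lowest level. Shares for steps between neighbouring times cover tested genes at 1 FPKM or more at the earlier time. Changes at a time used a block for line and a level for each time (4 residual degrees of freedom), the common trend line and rank of time (7), the trend difference their product (6), and the line difference at a time an added term (3). The 4 changes share the 0 h libraries. Libraries are paired by line because the design does so. Nothing says how many cultures a library holds, and p-values measure only the spread between these libraries. Depth was compared between libraries from the step of 1 read at low values, so no counting interval is given.

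The 50 genes and all lists were chosen with earlier results of these data known. Values in every library are given for, in each of 8 role groups, the 2 genes with the largest and the 1 with the smallest mean change at 48 h, for the 5 highest departures in U87 at 24 h, and for MKI67, TOP2A, CDK1, CCNB1, PLK1 and AURKB. In each other list the 2 largest changes are named. Of those lists, KIF4B and AURKC were below the filter; CENPC and HASPIN were read under their older symbols. Promoters came from RefSeq on GRCh38.p14; BUB3, whose promoter was also to be shown, is one of 7 genes not matched there, with AURKA, BIRC5, RACGAP1, TPX2, TTK and UBE2C. Transcript GC content and length came from GENCODE 29. Alternatives were the pseudocount (0.1), no filter on low values, median centring, upper quartile scaling, no mean-variance trend, a threshold of 0.1, no replicate block, time in hours, a 1.5-fold rule and leaving out each library; the correction for GC content and length, and for the time of the drop the omission of 24 h and median centring, were chosen after seeing the data. Scripts were tested on simulated data with spread taken from all genes. The 48 h test recovered 26% of genes changed by 1 on the log2 scale and 74% of those changed by 2. The 24 h line-difference test recovered 0% and 26%. The median residual SD of the mitosis genes was 0.55, beside 0.27 for all genes. A count of 0 adjusted calls therefore does not show that these genes were unchanged. Python 3.11.15 with pandas 2.3.3 and matplotlib 3.10.9 served for the rest.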

Additional observations from a re-analysis of the deposited data

Results flagged for a closer look

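At 12 h, 41 of the 50 mitosis genes were above their 0 h level in DBTRG-05MG and below it in U87, beside 28.4% of 10565 genes. Each line had 1 library at 0 h and 1 at 12 h, and this difference in direction was not tested as such. In DBTRG-05MG at 12 h the 16 housekeeping genes had a median of 0.34 above 0 h on the log2 scale, beside 0.27 for the mitosis genes. The part of this shift in the result was not tested. CDK1 was at 199% of 0 h in DBTRG-05MG and at 34.2% in U87, MAD2L1 at 189 and 68.0%, NEK2 at 183 and 36.6%, NUF2 at 175 and 37.7%, and TOP2A at 170 and 32.7%. The exceptions were CDC25B, above its start in both lines, and 8 genes below it in both: ANLN, BUB1B, ESPL1, KIF11, MKI67, PLK1, PTTG1 and TTK.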

How the results depend on the processing

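The counts of adjusted limma calls at 6, 12, 24 and 48 h, for the trend difference and for the line difference at 24 h were 0 in every alternative that could be fitted. The fit with no replicate block, that is without pairing by line, also gave 0 for the 4 times and the common trend. The common trend gave 15 genes with time in hours, and 0 to 4 when each library was left out in turn, the 4 without U87 at 24 h. The number of genes at least 2-fold lower in U87 was 32 at 48 h and 20 after median centring. At 24 h it was 11, then 5 after median centring, 25 with a 1.5-fold rule and 2 after correction for GC content and length. The number with a lasting drop at 12 h in U87 was 6, then 12 with a 1.5-fold rule, 18 without 24 h and 2 after median centring. The 1.5-fold rule also placed 9 genes at 6 h. The 48 and 47 genes of DBTRG-05MG at 48 h and the 40 above both neighbours in U87 at 24 h stayed within 1.5 times under the alternatives run for them. Without the DBTRG-05MG 48 h library the fitted 48 h value was 0.46 for CDK1 and 0.17 for TOP2A, and without U87 at 48 h -2.36 and -2.12. These values also draw on the other times, and both genes were below 0 h at 48 h in each line. The fitted values of the other named genes did not change sign. Leaving out 1 library moved the 48 h mean by over 1.5 times in 21 of 29 named genes, 20 of them without DBTRG-05MG at 48 h and 11 without U87 at 48 h. The cause of these shifts was not tested. With 1 library per line and time, the error of a single level is unknown.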

Other observations

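The 5 genes with a full cAMP response element in the promoter window did not all lie on the same side of 0 h at 6 h. KIF15, NDC80, PRC1, CCNA2 and CENPE had the FPKM values 4.43 and 4.86, 14.4 and 14.9, 43.4 and 45.3, 36.8 and 43.9, and 5.47 and 5.19 at 0 and 6 h in DBTRG-05MG. In U87 they had 7.53 and 5.64, 21.0 and 16.2, 52.3 and 39.4, 28.6 and 31.3, and 7.66 and 7.37. KIF15, NDC80 and PRC1 were higher in DBTRG-05MG and lower in U87 (16.4% of 10565 genes), and CENPE was lower in both (36.8%). CCNA2 was higher in both lines, with no share over all genes at hand. Some of these differences were small, and the error of a single library is unknown.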
